A study of Homo sapiens with 14 samples.

Results

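The genes described here encode the main structural proteins of the basement membrane: the type IV collagen chains COL4A1 and COL4A2, the laminin chains LAMA3, LAMA5, LAMB1, LAMB3 and LAMC1, the linker nidogen (NID1) and the heparan sulfate proteoglycan perlecan (HSPG2). They were taken by name, 9 genes in all, and measured through probe sets, the groups of short array probes that read 1 transcript region. Only probe sets assigned to exactly 1 gene were used, and the brightest of a gene, by its mean over the 14 arrays, was kept. Of the 9 genes, 8 had such a probe set, 22 probe sets in all, and LAMA3 was not analysed here. Of the 18129 genes measured, the dimmest 40% were left untested, which left 10877 tested genes. The 8 measured genes included 7 tested ones, and LAMB3 lay below the brightness limit with a mean log2 intensity of 6.60, where the dimmest tested gene had 6.89.

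The cells were PANC-1, an established line from a human pancreatic ductal carcinoma, grown in 10% serum, held in 1% serum for 24 h and then treated for 48 h. TGFb1 plus acriflavine (3 arrays) combined 5 ng/ml TGFb1, a cytokine that drives epithelial-mesenchymal transition, with 2.5 µM acriflavine, an acridine dye mixture. TGFb1 plus valproate (3 arrays) combined the same TGFb1 dose with 2 mM sodium valproate, a histone deacetylase inhibitor. The TGFb1 group (4 arrays) received TGFb1 alone, and the control group (4 arrays) received the vehicle. All samples come from 1 cell line. No group that received acriflavine or valproate without TGFb1 was analysed here, so each agent is set against TGFb1 alone. The labels call the replicates biological. The replicates 4, in the control and TGFb1 groups only, were profiled in addition to the first 3. The labels say nothing more of what separates the replicates.

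A basement membrane is a thin sheet of matrix beneath epithelia and around vessels. Laminins are trimers of an alpha, a beta and a gamma chain that polymerise at the cell surface. Type IV collagen, most often built from COL4A1 and COL4A2 chains, forms a separate crosslinked network, and nidogen and perlecan bridge both. In carcinomas this sheet is breached during invasion, and its proteins can also be made by the tumour cells themselves.

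The probe set medians of the 14 arrays lay between 7.16 and 7.21 on the log2 scale, and the median difference over all tested genes lay between -0.02 and 0.04 in the 6 comparisons. The arrays differed in how far they stood from their group: the SD of these distances across tested genes reached 0.375 in TGFb1 replicate 4 and 0.256 in TGFb1 replicate 2, and 0.250 in control replicate 4, while the other 11 lay between 0.0665 and 0.160. Of 8 epithelial and duct cell markers, all 8 were bright enough to be tested. All 6 endothelial markers lay below the brightness limit, and so did the fibroblast markers PDGFRA, PDGFRB, DCN and LUM and the leukocyte markers PTPRC and CD3E. The fibroblast markers THY1 and ACTA2 and the leukocyte markers CD68, TYROBP and LAPTM5 lay above the limit and were tested. In arrays of a whole culture, fewer cells of a kind and less RNA per cell cannot be told apart.

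Promoter stretches are shown for the genes whose transcripts moved most or whose start regions stand out, from the RefSeq table of build GRCh38.p14, which holds 300-base windows from 250 bases before to 50 bases after a start. COL4A1 and COL4A2 lie head to head on chromosome 13, COL4A1 at chr13:110148963-110307157 on the minus strand and COL4A2 at chr13:110307284-110513209 on the plus strand. Their starts are 127 bases apart, so that their windows share 226 bases. The stretch between the starts, chr13:110307158-110307283, is shown on the COL4A1 strand, with matches on either strand in capitals: one to the SMAD GC motif (GGCGCC), one to the SP1 core (GGGCGG) that shares 2 letters with it, and one to the CCAAT box.
COL4A1 and COL4A2: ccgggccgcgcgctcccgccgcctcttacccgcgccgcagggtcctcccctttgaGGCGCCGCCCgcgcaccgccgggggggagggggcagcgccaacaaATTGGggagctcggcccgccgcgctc
The LAMB1 stretch, chr7:108003162-108003411 on the minus strand, has its matches to the SMAD GC motif and to the SP1 core in capitals.
LAMB1: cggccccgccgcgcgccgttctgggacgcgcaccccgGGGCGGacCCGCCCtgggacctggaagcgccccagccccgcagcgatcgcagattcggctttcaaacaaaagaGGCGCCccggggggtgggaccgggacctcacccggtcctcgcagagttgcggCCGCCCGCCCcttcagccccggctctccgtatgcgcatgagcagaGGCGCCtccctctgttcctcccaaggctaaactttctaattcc
The HSPG2 stretch, chr1:21937311-21937560 on the minus strand, has its SP1 core matches in capitals, some of which overlap each other.
HSPG2: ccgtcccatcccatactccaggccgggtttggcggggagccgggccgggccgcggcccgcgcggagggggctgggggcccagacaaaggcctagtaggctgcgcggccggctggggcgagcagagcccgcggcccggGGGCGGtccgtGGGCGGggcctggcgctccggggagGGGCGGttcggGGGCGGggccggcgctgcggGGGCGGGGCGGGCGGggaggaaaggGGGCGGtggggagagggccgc
LAMB3 has 3 annotated starts, and the stretch before the innermost, chr1:209651375-209651624 on the minus strand, has in capitals a match to the AP-1 letters (TGANTCA), one to the SP1 core and one to the CCAAT box.
LAMB3: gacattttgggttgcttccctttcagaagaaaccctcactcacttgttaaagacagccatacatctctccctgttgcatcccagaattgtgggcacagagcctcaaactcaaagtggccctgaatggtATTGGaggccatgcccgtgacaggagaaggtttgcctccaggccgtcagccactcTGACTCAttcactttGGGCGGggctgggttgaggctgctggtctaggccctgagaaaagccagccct

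Both strands of every window were searched. The SMAD GC motif was found in the windows of COL4A1, COL4A2, LAMA5, LAMB1 and NID1, and in 19.2% of all 35116 windows in the table. LAMB1 held it 2 times, and 4.35% of all windows held it at least that often. The SP1 core was found 10 times in the HSPG2 window, overlapping matches included, a count reached by 0.214% of all windows. The AP-1 letters TGANTCA occurred in the windows of LAMA3 and of the innermost LAMB3 start and in 7.71% of all windows, and the TATA box letters TATAAA in 0 of the 11 windows of the 9 genes and in 11.5% of all. CAGAC, a short SMAD-binding site, was found in the windows of LAMA3, LAMA5, LAMC1 and HSPG2 and in 45.3% of all. It had no match in the windows of COL4A1, COL4A2, LAMB1, LAMB3 and NID1. CACCTG, the E-box read by SNAI and ZEB factors, was found in the windows of LAMA3, LAMA5 and 1 LAMB3 start and in 20.6% of all. CCAAT occurred in the COL4A1, COL4A2, NID1 and 1 of the LAMB3 windows and in 34.6% of all. The GC content of the windows ran from 53.7% at the innermost LAMB3 start to 83.3% at HSPG2, with a median of 58.7% over all windows. The shares over all windows were not matched for GC content, and its part in these counts was not tested. These are matches of letters in these windows, with nothing measured about binding.

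With TGFb1 alone, both type IV collagen chains rose and LAMA5, LAMB1 and HSPG2 fell, while LAMC1 and NID1 did not pass the test. The 2 that rose and 3 that fell stand against 8.39% of all tested genes that rose and 9.97% that fell, 18.4% in all, at an adjusted p of 0.05 (limma, Benjamini-Hochberg over 10877 genes). The 7 tested genes had a median log2 difference of -0.10, against 0.00 over all tested genes. The arrays of the TGFb1 and control groups did not overlap for 3 of the 7, and for 18% of all tested genes. Across all genes the count of calls was 1997, and 3148 with the replicate number as a block. Without TGFb1 replicate 2 and the replicates 4, the arrays farthest from their groups, the same 5 of the 7 genes passed.

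COL4A1, the major chain of the common collagen IV trimer, had log2 intensities of 9.47, 8.87, 9.56 and 9.04 in TGFb1 arrays, against 6.59, 6.20, 6.96 and 6.92 in control arrays. Every TGFb1 array was above every control array. The difference was 2.56 ± 0.19 (SE), a fold of 5.91 (adjusted p = 7.46e-07 by limma). COL4A2, its partner chain, had 8.64, 8.27, 8.95 and 8.74 in TGFb1 arrays, against 6.57, 6.26, 6.61 and 6.90 in control arrays. The groups were again fully apart, and the difference was 2.06 ± 0.15 (SE), a fold of 4.18 (adjusted p = 6.29e-07 by limma). The control means, 6.67 for COL4A1 and 6.58 for COL4A2, lay under the 6.89 of the dimmest tested gene. Both genes reached the brightness limit through the arrays with TGFb1. The replicates 4, profiled in addition to the first 3, gave 2.12 for COL4A1 and 1.84 for COL4A2, and replicates 1 to 3 gave 2.71 and 2.14.

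Neither agent brought the collagen IV chains back to the control level. In TGFb1 plus acriflavine arrays COL4A1 read 9.22, 9.09 and 9.32 and COL4A2 read 8.73, 8.69 and 8.70, inside the range of the TGFb1 arrays. The differences from TGFb1 alone were -0.02 for COL4A1 (95% interval -0.47 to 0.42, adjusted p = 0.938 by limma) and 0.06 for COL4A2 (-0.29 to 0.41, adjusted p = 0.795). Both chains stood above control by 2.54 ± 0.21 and 2.12 ± 0.16 (SE). In TGFb1 plus valproate arrays COL4A1 read 9.67, 10.23 and 9.69 and COL4A2 read 9.11, 9.57 and 9.25, above all TGFb1 arrays for both genes. Relative to TGFb1 alone COL4A1 rose by 0.63 ± 0.21 (SE; adjusted p = 0.0325 by limma) and COL4A2 by 0.66 ± 0.16 (adjusted p = 0.00717). The COL4A1 call rests on single arrays, at 0.51 (adjusted p = 0.0818 by limma) without TGFb1 replicate 2 and 0.45 (adjusted p = 0.169) without valproate replicate 2. Without TGFb1 replicate 2 and the replicates 4 together, an alternative chosen after the data were seen, it was 0.35 (adjusted p = 0.140). Relative to control the folds with TGFb1 plus valproate were 9.16 for COL4A1 and 6.62 for COL4A2.

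**Figure D1:**
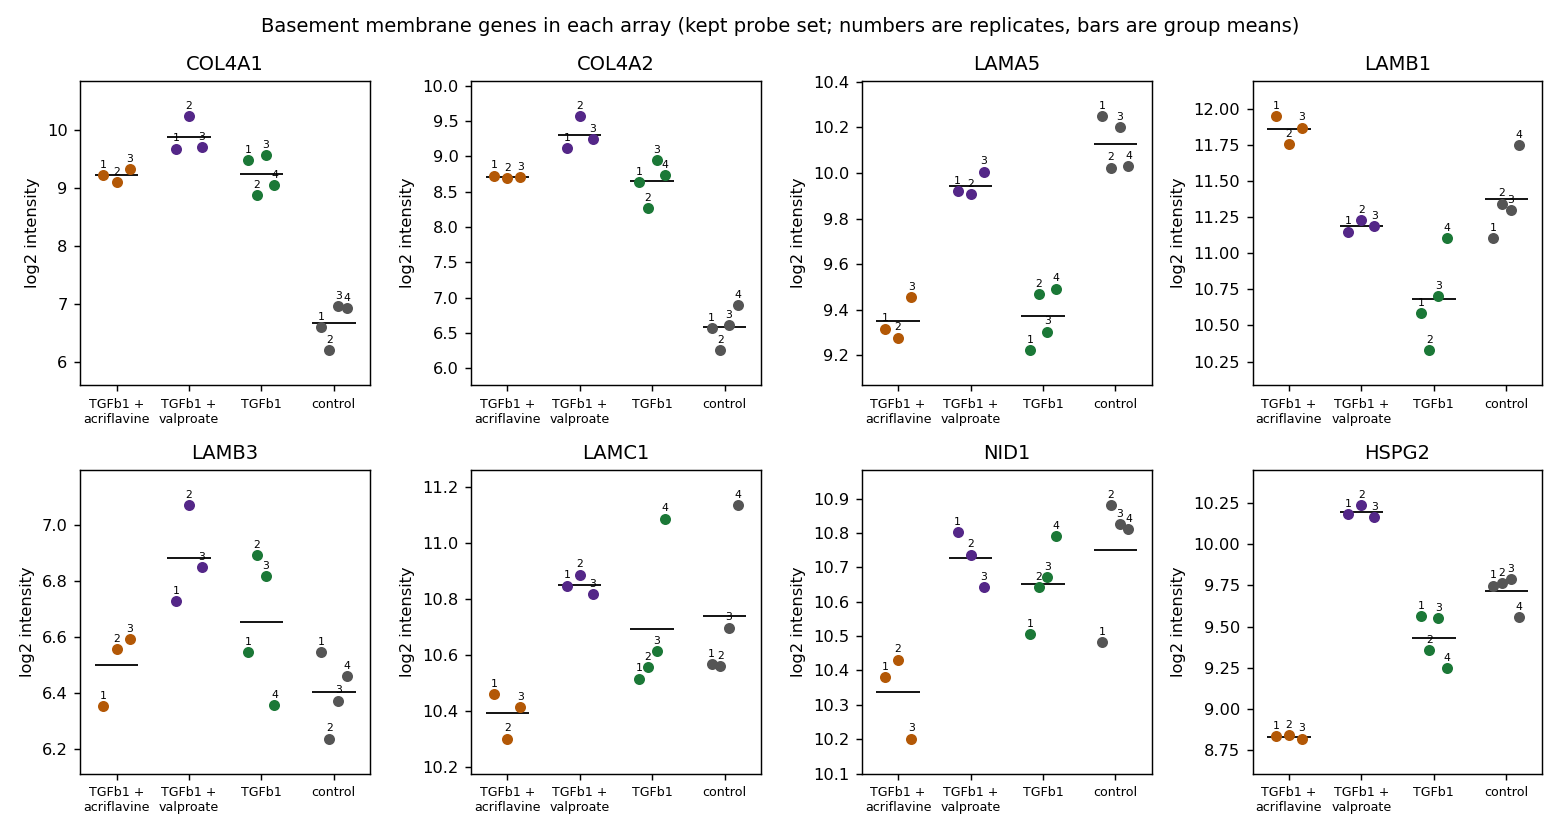
Log2 intensity (vertical axis, its own range in each panel) of the kept probe set of each of the 8 measured genes, with 1 point per array, numbered by replicate, and a bar at the group mean, for TGFb1 plus acriflavine, TGFb1 plus valproate, TGFb1 and control. COL4A1 and COL4A2 sit between 8.27 and 10.23 in every array with TGFb1 and between 6.20 and 6.96 in control arrays, LAMB1 is highest with acriflavine, and HSPG2 is lowest with acriflavine and highest with valproate.

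The head-to-head pair moved together from array to array. Over the 14 arrays COL4A1 and COL4A2 had a Pearson r of 0.993, a value set mostly by the gap between the control arrays and the rest. With each group's mean removed, the deviations of the 14 arrays still had an r of 0.835. No other pair of the 8 genes came above 0.694 over the arrays (LAMC1 and NID1). By deviations LAMB1 and LAMC1 came higher, at 0.905, both with their highest TGFb1 and control values in the replicates 4. These correlations are descriptions over 14 arrays in 4 groups that share their normalisation.

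**Figure D2:**
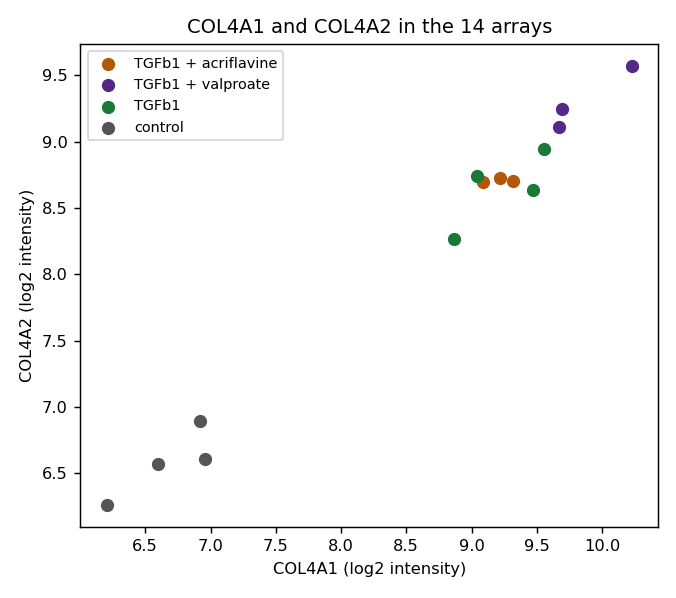
COL4A2 log2 intensity (vertical axis) against COL4A1 log2 intensity (horizontal axis), 1 point per array, coloured by group. The 4 control arrays lie at the lower left, below 7 on both axes, the acriflavine arrays lie among the TGFb1 arrays, and the 3 valproate arrays lie at the upper right.

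For TGFb1 against control and valproate against TGFb1, the other probe sets of both collagen chains rose too, apart from a dim one. A second COL4A1 probe set (11716639_a_at) rose by 1.81 with TGFb1 (adjusted p = 2.22e-06 by limma over each probe set) and by a further 0.48 with valproate (adjusted p = 0.0474). The third (11760558_at) had a mean log2 intensity of only 4.59, a TGFb1 difference of 0.14 and a mean of 4.53 to 4.67 in every group. The other COL4A2 probe sets rose by 1.08 and 0.81 with TGFb1 and by 0.58 and 0.52 with valproate against TGFb1. Brighter probe sets gave the larger differences in both genes with TGFb1.

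The laminin chains did not move as a block. LAMA5, the alpha chain of the laminins found in most adult epithelial and vessel basement membranes, had 9.22, 9.47, 9.30 and 9.49 in TGFb1 arrays, against 10.25, 10.02, 10.20 and 10.03 in control arrays. The 2 groups did not overlap, and LAMA5 fell by 0.75 on the log2 scale (SE 0.084, adjusted p = 2.71e-05 by limma). With TGFb1 plus acriflavine it read 9.32, 9.28 and 9.46, and the difference from TGFb1 alone was -0.02 (95% interval -0.22 to 0.17). With TGFb1 plus valproate it read 9.92, 9.91 and 10.01, above every TGFb1 array, and it rose by 0.57 ± 0.090 (SE; adjusted p = 0.000306 by limma). All 3 valproate arrays still lay just under the lowest control array, with a difference from control of -0.18 that did not pass (adjusted p = 0.133 by limma; 0.0499 without the replicates 4). Its other probe set (11762597_x_at) was dim, with group means of 5.84 to 5.97, and passed in 0 comparisons.

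LAMB1, the beta chain shared by several laminins, had 10.58, 10.33, 10.70 and 11.10 in TGFb1 arrays, against 11.10, 11.34, 11.30 and 11.75 in control arrays. It fell by 0.69 (SE 0.15, adjusted p = 0.00597 by limma), although TGFb1 replicate 4 reached the lowest control array. The replicate 4 pair alone differed by -0.64 and replicates 1 to 3 by -0.71. With TGFb1 plus acriflavine LAMB1 read 11.95, 11.75 and 11.87, above every TGFb1 array, and rose by 1.18 ± 0.16 (SE), a fold of 2.26 (adjusted p = 7.03e-05 by limma). These arrays were also above every control array, by 0.48 ± 0.16 in the mean (adjusted p = 0.0262 by limma; 0.0530 to 0.0915 when any of 5 single arrays was left out). With TGFb1 plus valproate it read 11.15, 11.23 and 11.19 and rose against TGFb1 by 0.51 ± 0.16 (adjusted p = 0.0305 by limma), a call that was lost when any of 6 single arrays was left out (adjusted p of 0.0510 to 0.0904). A second LAMB1 probe set (11753971_a_at) fell by 0.55 with TGFb1 and rose against TGFb1 by 0.88 with acriflavine and 0.28 with valproate.

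LAMC1, the gamma chain that pairs with most alpha and beta chains, varied within a narrow band. Its values were 10.46, 10.30 and 10.41 with acriflavine, 10.85, 10.89 and 10.82 with valproate, 10.52, 10.56, 10.61 and 11.09 with TGFb1 alone and 10.57, 10.56, 10.70 and 11.14 in controls. The highest values of the TGFb1 and control groups were both replicate 4, and the TGFb1 difference was -0.05 (95% interval -0.35 to 0.25, adjusted p = 0.857 by limma). Against TGFb1 alone the difference was -0.30 with acriflavine, whose arrays all lay below the TGFb1 arrays, and 0.16 with valproate (adjusted p = 0.123 and 0.478 by limma). Without the replicates 4 they were -0.17 (adjusted p = 0.0465 by limma) and 0.29 (adjusted p = 0.00342), and both then passed. With all arrays in the fit, neither difference passed in any of the 4 other LAMC1 probe sets, which were not fitted without the replicates 4. A bright one of them (11716053_a_at, mean 9.90) had the opposite sign with acriflavine against TGFb1, at 0.15 (adjusted p = 0.243 by limma over each probe set).

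LAMB3, a beta chain of the laminin found at epithelial hemidesmosomes, was measured by 2 probe sets that differed. The kept probe set read 6.35, 6.56 and 6.59 with acriflavine, 6.73, 7.07 and 6.85 with valproate, 6.55, 6.89, 6.82 and 6.36 with TGFb1 alone and 6.55, 6.24, 6.37 and 6.46 in controls. The TGFb1 arrays overlapped with all other groups, and the means spanned 6.41 to 6.88. The other probe set (11719487_a_at) separated the groups completely. It read 5.78, 5.55 and 5.78 with acriflavine, 7.41, 7.48 and 7.50 with valproate, 6.45, 6.21, 6.14 and 6.12 with TGFb1 alone and 5.48, 5.24, 5.23 and 5.07 in controls. In a fit of each probe set with no brightness filter, chosen after the data were seen, it rose by 0.97 ± 0.099 (SE) with TGFb1 (adjusted p = 1.85e-05 by limma), fell against TGFb1 by 0.53 with acriflavine (adjusted p = 0.00183) and rose against TGFb1 by 1.24 with valproate (adjusted p = 2.57e-06). In the same fit the kept probe set passed in 0 of these 3 comparisons. The 2 probe sets had the same sign in every comparison, and both passed for TGFb1 plus valproate against control, at 2.21 and 0.48, and for TGFb1 plus acriflavine against TGFb1 plus valproate, at -1.77 and -0.38 (adjusted p = 5.98e-08 and 0.0483 by limma).

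**Figure D3:**
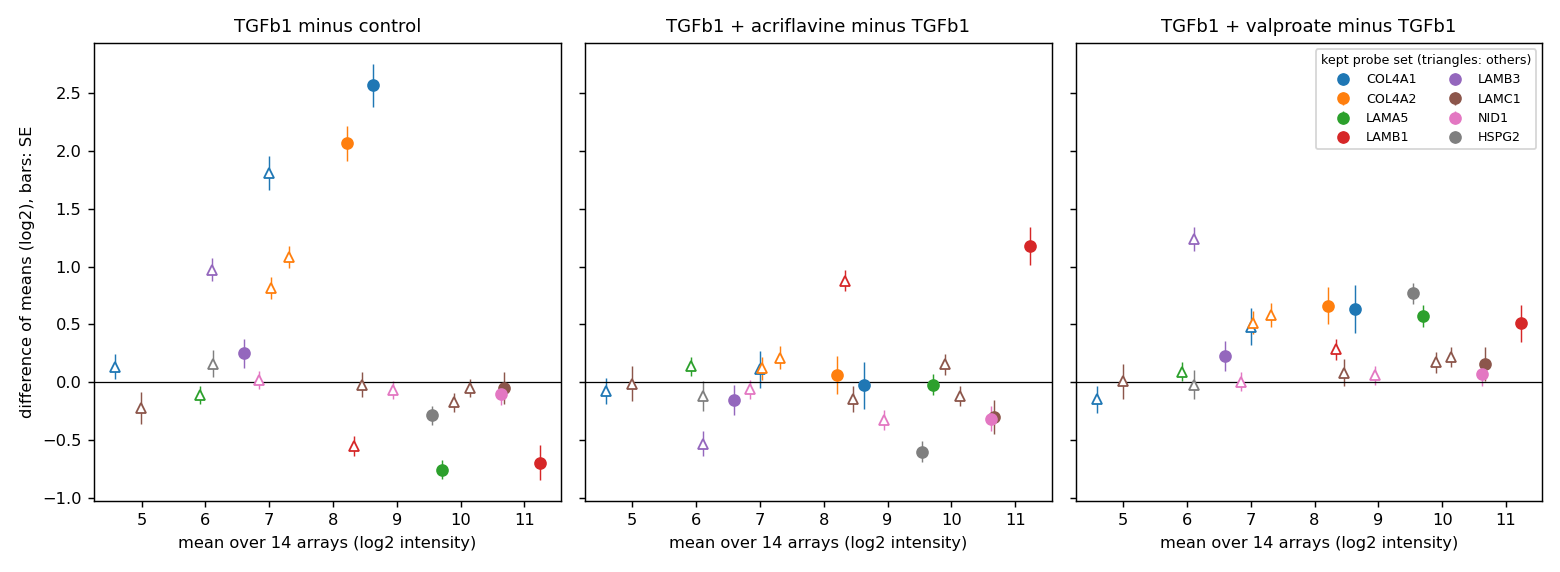
Difference of group means (log2, vertical axis) against the mean log2 intensity over the 14 arrays (horizontal axis) for the 22 probe sets of the 8 measured genes, coloured by gene, with the kept probe set as a filled circle, the others as open triangles and bars of 1 SE, in panels for TGFb1 minus control, acriflavine minus TGFb1 and valproate minus TGFb1. Dim probe sets of COL4A1, LAMA5 and HSPG2 lie near 0 at the left, and the LAMB3 probe sets differ in size, 0.97 for the open triangle and 0.25 for the filled circle for TGFb1 minus control.

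Of the proteins that bridge the networks, nidogen and perlecan were both lowest with acriflavine. NID1, which links laminin to collagen IV, read 10.38, 10.43 and 10.20 with acriflavine, 10.80, 10.74 and 10.64 with valproate, 10.51, 10.64, 10.67 and 10.79 with TGFb1 alone and 10.48, 10.88, 10.83 and 10.81 in controls. All 3 acriflavine arrays were below all others, and NID1 fell by 0.31 relative to TGFb1 (SE 0.11, adjusted p = 0.0267 by limma). That call was lost without TGFb1 replicate 3 or without acriflavine replicate 1 or 3 (adjusted p of 0.0540, 0.0543 and 0.124), and at 0.0696 without TGFb1 replicate 2 and the replicates 4. A second NID1 probe set (11743137_a_at) fell by 0.32, and the other, dimmer one (11752234_a_at, mean 6.84) differed by -0.06 and did not pass (adjusted p = 0.666 by limma). The TGFb1 difference was -0.10 (95% interval -0.31 to 0.11) and the valproate difference from TGFb1 was 0.08 (-0.15 to 0.30), neither past the test.

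Of the 7 tested genes, HSPG2 showed the widest gap between the agents. It read 8.83, 8.84 and 8.82 with acriflavine and 10.19, 10.24 and 10.17 with valproate, against 9.56, 9.36, 9.55 and 9.24 with TGFb1 alone and 9.75, 9.77, 9.79 and 9.56 in controls. The acriflavine arrays lay below and the valproate arrays above every other array. Against TGFb1 it fell by 0.60 with acriflavine (SE 0.089, adjusted p = 0.000116 by limma) and rose by 0.77 ± 0.089 with valproate (adjusted p = 2.58e-05). With valproate it was also above control by 0.48 ± 0.089 (adjusted p = 0.000772 by limma). With TGFb1 alone it fell by 0.29 (SE 0.082, adjusted p = 0.0276 by limma), but the groups overlapped and the call was lost without TGFb1 replicate 2 or any of control replicates 1 to 3 (adjusted p of 0.0603 to 0.0847). It was also lost in a fit of the 2 groups alone (adjusted p = 0.135 by limma) and with quantile normalisation repeated (0.0509). These values come from a probe set whose name ends in _x_at, which marks probes that can match other transcripts. The other HSPG2 probe set was dim, with a mean of 6.11, and passed in 0 comparisons.

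Across the 7 tested genes, acriflavine on top of TGFb1 gave 1 rise (LAMB1) and 2 falls (NID1 and HSPG2), where 24.5% of all tested genes rose and 19.1% fell, 43.6% in all. The arrays of both groups did not overlap for 4 of the 7 and for 44.1% of all tested genes. The median difference of the 7 was -0.02, against 0.03 over all tested genes. Valproate on top of TGFb1 gave 5 rises (COL4A1, COL4A2, LAMA5, LAMB1 and HSPG2) and 0 falls, where 15.1% of all tested genes rose and 16.2% fell, 31.3% in all. The arrays did not overlap for 5 of the 7 and for 34.6% of all tested genes. The median of the 7 was 0.57, against -0.01 over all tested genes. The count of 5 became 3 without TGFb1 replicate 2 and 3 without valproate replicate 2, when COL4A1 and LAMB1 did not pass. Both comparisons share the TGFb1 arrays.

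**Figure D4:**
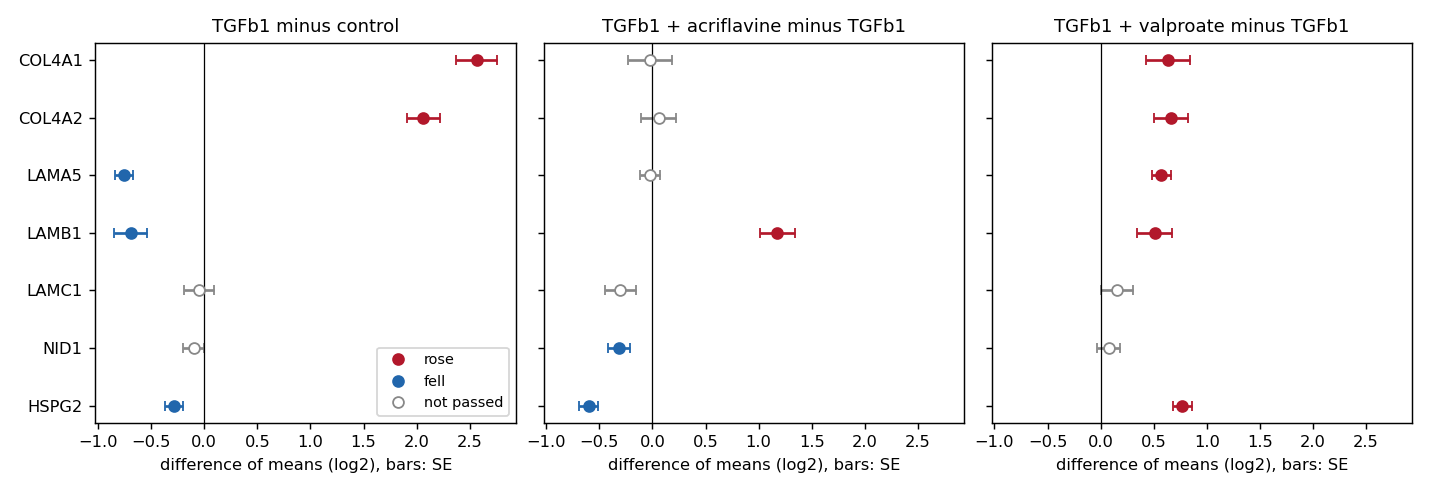
Difference of group means (log2, horizontal axis) with bars of 1 SE for the 7 tested genes (rows), in panels for TGFb1 minus control, TGFb1 plus acriflavine minus TGFb1 and TGFb1 plus valproate minus TGFb1, coloured by the call. In the first panel COL4A1 stands at 2.56 and COL4A2 at 2.06 while LAMA5, LAMB1 and HSPG2 lie left of 0, in the second LAMB1 stands at 1.18, and in the third the 5 called genes lie between 0.51 and 0.77.

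Set against control, TGFb1 plus acriflavine left 3 genes up (COL4A1, COL4A2 and LAMB1) and 3 down (LAMA5, NID1 and HSPG2), where 26.1% of all tested genes rose and 21.6% fell, 47.7% in all. The arrays did not overlap for 7 of the 7 and for 58.9% of all tested genes. LAMA5 fell by 0.78, NID1 by 0.41 and HSPG2 by 0.89 on the log2 scale. TGFb1 plus valproate left 3 genes up (COL4A1, COL4A2 and HSPG2) and 0 down, where 16.9% of all tested genes rose and 19.8% fell, 36.7% in all. The arrays did not overlap for 4 of the 7 and for 48.4% of all tested genes. For LAMB1 the valproate difference from control was -0.18 (95% interval -0.54 to 0.17). The 3 comparisons with control share its 4 arrays.

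Compared directly, TGFb1 plus acriflavine and TGFb1 plus valproate differed in all 7 tested genes in the fit of all arrays, where 28.3% of all tested genes were higher with acriflavine and 23.3% lower, 51.5% in all. The arrays did not overlap for any of the 7 or for 72.3% of all tested genes. LAMB1 was higher with acriflavine, by 0.67 ± 0.18 (SE; adjusted p = 0.00584 by limma), and the other 6 were lower. HSPG2 was lower by 1.37 on the log2 scale, a fold of 2.58 (adjusted p = 1.02e-07 by limma). The other 5 differences were -0.66 for COL4A1, -0.60 for COL4A2, -0.59 for LAMA5, -0.46 for LAMC1 and -0.39 for NID1. Leaving out any 1 of the 6 arrays ended at least 1 of these calls. Without valproate replicate 2 the count was 4, and COL4A1 (-0.47), COL4A2 (-0.47) and LAMC1 (-0.44) did not pass. LAMC1 was also lost without valproate replicate 1 or 3 or acriflavine replicate 2 or 3 (adjusted p of 0.0545 to 0.0890 by limma), COL4A1 without acriflavine replicate 1 or 2 (0.0556 and 0.0770) and NID1 without acriflavine replicate 3 (0.0514). Of the 4 other LAMC1 probe sets, 3 did not pass. Nor did the second COL4A1 probe set (11716639_a_at), at -0.37 (adjusted p = 0.117 by limma over each probe set). The dimmest probe sets of COL4A1, LAMA5, NID1 and HSPG2 did not pass either. The other COL4A2 probe sets and the second ones of LAMB1 and NID1 passed with the sign of the kept ones.

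The other chains of both families gave 1 call for TGFb1 against control, 1 for acriflavine against TGFb1 and 0 for valproate against TGFb1. Over all tested genes these comparisons called 18.4%, 43.6% and 31.3%. Of 11 other laminin and collagen IV chains, 5 were tested and COL4A3, COL4A4, COL4A5, LAMA1 and LAMA2 lay below the brightness limit. The COL4A5 mean was 7.53 with valproate, 1.53 above that with TGFb1 alone, with no overlap of the arrays and no test, and is named after its value was seen. LAMA4, the alpha chain typical of vessels and mesenchymal cells, rose with TGFb1 by 0.90 (SE 0.29, adjusted p = 0.0450 by limma), with overlapping arrays, and is named after its value was seen. LAMC3 fell with acriflavine against TGFb1 by 0.57 (adjusted p = 0.0230 by limma), and with valproate against TGFb1 0 of the 5 passed. Of 25 other basement membrane components, 14 were tested, and 3 rose and 3 fell with TGFb1, where 8.39% of all tested genes rose and 9.97% fell. COL7A1, the collagen of the anchoring fibrils that tie the basement membrane to the stroma, was at 11.49 with TGFb1 and 9.22 in controls, a rise of 2.27 ± 0.10 (SE). TGFBI, a collagen-binding matrix protein, rose by 1.31, and NTN4, a netrin that disrupts laminin networks, fell by 1.17.

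The same 14 components included 5 that rose and 5 that fell with acriflavine against TGFb1, and 6 that rose and 3 that fell with valproate. Of all tested genes, 24.5% rose and 19.1% fell with acriflavine against TGFb1, and 15.1% rose and 16.2% fell with valproate. With acriflavine TINAGL1 rose by 2.09 and MATN2 by 1.03, and COL18A1, the collagen that carries endostatin, fell by 1.19. With valproate NTN4 rose by 1.13, LTBP1, which binds latent TGF-beta, by 1.02 and TINAGL1 by 0.77. Medians over the 14 were -0.04, -0.13 and 0.00 in the 3 comparisons.

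Of 19 receptors and anchors, 16 were tested. With TGFb1 2 rose and 3 fell, among them the syndecan SDC1 (1.12), the hemidesmosome integrin chain ITGB4 (-0.99) and the syndecan SDC4 (-0.91). ITGB4, which binds the LAMB3-containing laminin, rose against TGFb1 with both agents, by 1.51 with acriflavine and 0.94 with valproate. With acriflavine 4 rose and 6 fell, and the collagen receptor DDR2 fell by 1.52 and PLEC, the plectin of hemidesmosomes, by 1.23. With valproate 6 rose and 2 fell, and the collagen-binding integrin chain ITGA2 rose by 0.76 while PARVA, an adaptor of integrin adhesions, fell by 0.99. The medians of the 16 were 0.01, -0.08 and 0.31. Over all tested genes 18.4% were called with TGFb1, 43.6% with acriflavine against TGFb1 and 31.3% with valproate against TGFb1.

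Genes that modify, fold and export collagen were 21, of which 19 were tested. With TGFb1 6 rose and 1 fell, and among those whose arrays did not overlap the larger rises were those of the lysyl hydroxylase PLOD1 (1.35), the prolyl hydroxylase P3H1 (0.68) and P4HA1 (0.63), a catalytic subunit of prolyl hydroxylase. With acriflavine against TGFb1 2 rose and 7 fell, CREB3L2, a transcription factor of secretory genes, by 1.91 and PLOD2 by 0.91, while P4HA2 rose by 0.69. With valproate against TGFb1 0 rose and 2 fell, SERPINH1, the collagen chaperone, by 1.01 and KLHL12, an adaptor for large collagen transport carriers, by 0.33. The medians of the 19 were 0.33, -0.22 and 0.00. The shares of all tested genes called in these comparisons were 18.4%, 43.6% and 31.3%.

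**Figure D5:**
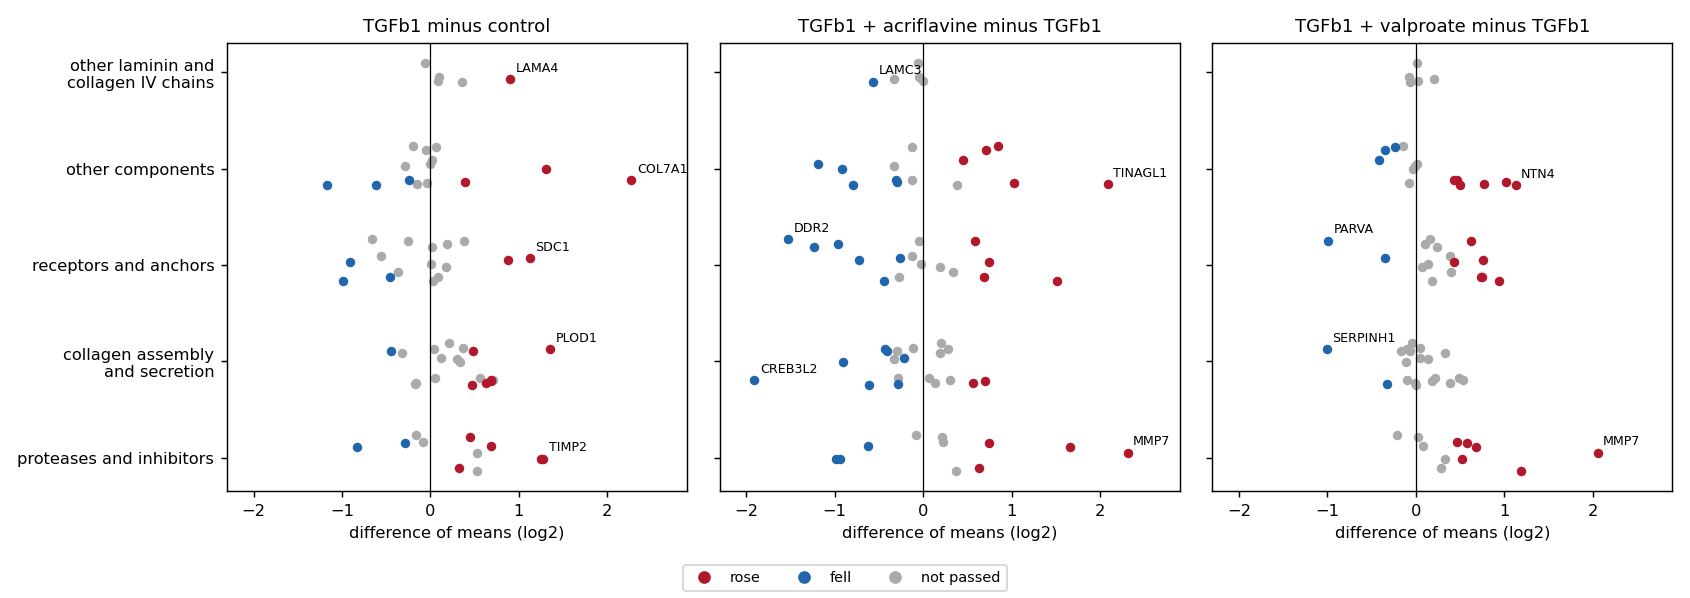
Difference of group means (log2, horizontal axis) for the tested genes of 5 lists of related genes (rows), in panels for TGFb1 minus control, TGFb1 plus acriflavine minus TGFb1 and TGFb1 plus valproate minus TGFb1, 1 point per gene, coloured by the call. The gene with the largest called change per list is named where there is one, such as COL7A1 at 2.27 with TGFb1 and CREB3L2 at -1.91 with acriflavine.

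Epithelial markers moved in the same comparisons. Of the 8, 6 fell with TGFb1, 5 rose with acriflavine against TGFb1 and 3 rose with valproate against TGFb1. The matching shares of all tested genes were 9.97%, 24.5% and 15.1%. Their summed log2 intensity per array was 93.9 to 94.8 with acriflavine, 89.3 to 90.9 with valproate, 85.4 to 88.1 with TGFb1 alone and 92.5 to 95.5 in controls. Of the 2 tested fibroblast markers, THY1 rose with TGFb1 by 0.95 and with valproate against TGFb1 by 1.40, and ACTA2 rose with acriflavine against TGFb1 by 1.27. In each of these comparisons the other of the 2 did not pass. Of all tested genes, 8.39% rose with TGFb1, 15.1% with valproate against TGFb1 and 24.5% with acriflavine against TGFb1. The part of these markers in the collagen and laminin values was not tested.

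By Pearson r over the 14 arrays, the tested genes most like COL4A1 were TCEAL1 (0.971), NT5E (0.970) and COL7A1 (0.969), and the same 3 genes were most like COL4A2 (0.975, 0.982 and 0.971). The nearest gene was SDK1 for LAMA5 (0.939), the myosin kinase MYLK for LAMB1 (0.965), PPP2R3A for LAMC1 (0.977), ARMCX5 for NID1 (0.890) and SH3BGRL2 for HSPG2 (0.981). The group means set most of these values.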

How the data were processed

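The labels describe 14 Affymetrix arrays of biotin-labelled RNA from 200 ng of input. The deposited values are log2 intensities made by RMA with affy 1.44.0, per the submitters' processing notes. Which arrays were normalised together is not given in the sources used here. RMA aligns array distributions, so a shift common to all genes would not show. Precision is limited by having 3 or 4 arrays in a group.

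The 14 arrays entered 1 linear model with a mean for each group (limma 3.58.1, lmFit and eBayes, R 4.3.3), and p-values were adjusted by Benjamini-Hochberg over 10877 genes. The filter, the kept probe set, scaling, variance model, thresholds and single arrays were varied. Named genes are the 9 genes, up to 3 per list and comparison with the largest called, non-overlapping changes, and the 3 most correlated genes each. Cell type markers were named outside this rule. Members and lists were chosen with earlier results of these data known. The main model did not use the replicate numbers, which entered as a block in an alternative fit only. For TGFb1 and control, deviations from the group means correlated between arrays of the same number at 0.387, 0.359, 0.543 and 0.705. Fits were tested on simulated data with independent noise, of the same size on every array. The correlated replicates and unequal spread of the real arrays were not simulated.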

Additional observations from a re-analysis of the deposited data

Results flagged for a closer look

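HSPG2 in control replicate 4 stood apart from the other control arrays, at 9.56 against 9.75 to 9.79 in the other 3. The gap to the nearest array was 0.836 of the group's range, above Dixon's 95% critical value for a group of 4. It was the only such array among 16 pairs of gene and group tested, and chance gives about 1 in 20.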

How the results depend on the processing

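Calls were counted over the 7 tested genes, and over LAMB3 too in alternatives that tested it. Their number stayed within 1.5 times its main value under most alternatives, and those that moved it were these. A stricter adjusted p of 0.01 gave 3 calls for valproate against TGFb1 and 3 for acriflavine against valproate. A minimum fold of 2 gave 2 calls for TGFb1 against control, 1 for acriflavine against TGFb1, 0 for valproate against TGFb1 (5 without the fold), 2 for acriflavine against control and 1 for acriflavine against valproate. A fit of the 2 groups alone gave 3 for valproate against TGFb1. Valproate against control had 5 calls, not 3, without the replicates 4, and 5 when TGFb1 replicate 2 was also left out, an alternative chosen after seeing the data. With single arrays left out the calls ranged from 3 to 5 for valproate against TGFb1 and from 4 to 6 for acriflavine against valproate.

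With the replicate number as a block, COL4A1 and the other calls for TGFb1 against control did not change among the 7 genes. In the other comparisons, deviations did not correlate above 0.1 at every replicate number. They ran from -0.638 to -0.100 for valproate against TGFb1, -0.491 to -0.291 for valproate against control and -0.381 to 0.091 for acriflavine against valproate. Acriflavine gave -0.0005 to 0.398 against TGFb1 and -0.075 to 0.266 against control. LAMC1 passed with the block at 0.29 for valproate against TGFb1 (adjusted p = 0.00643 by limma), -0.22 for acriflavine against control and 0.24 for valproate against control. With all probe sets of a gene averaged, HSPG2 differed by -0.06 with TGFb1 and COL4A1 by 0.32 with valproate against TGFb1, and neither passed. For acriflavine against valproate COL4A1 and LAMC1 then did not pass either (adjusted p = 0.0812 and 0.0964 by limma). LAMB3, averaged, was called in all 6 comparisons, among them at 0.61 with TGFb1, -0.34 with acriflavine and 0.73 with valproate against TGFb1, 1.34 for valproate against control and -1.07 for acriflavine against valproate.

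Dim probe sets turned the signs of some called differences without passing. Among uncalled differences, a bright LAMC1 probe set (11716053_a_at) turned the sign for acriflavine against TGFb1, at 0.15. COL4A1 (11760558_at) gave -0.15 for valproate against TGFb1, -0.0103 for valproate against control and 0.0721 for acriflavine against valproate. LAMA5 (11762597_x_at) gave 0.0296 for acriflavine against control and 0.0458 for acriflavine against valproate. HSPG2 (11753471_a_at) gave 0.16 for TGFb1 against control, -0.0208 for valproate against TGFb1 and 0.0443 for acriflavine against control. With probe sets ending in _x_at left out, HSPG2 had no test, and with the dimmest 60% of genes left out COL4A2 had none. The cause was not tested.

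The count of all genes called for TGFb1 against control, 1997, was 3148 with the block, 3149 without TGFb1 replicate 4, 3154 without both replicates 4, 1051 at 0.01, 963 with 2 groups alone and 280 at a fold of 2. For valproate against TGFb1, 3402 became 5203 without the replicates 4, 5376 without TGFb1 replicate 2 as well, 2263 with 2 groups alone, 2199 at 0.01 and 445 at a fold of 2. A fold of 2 left 753 of 4738 for acriflavine against TGFb1, 792 of 5193 for acriflavine against control, 638 of 3991 for valproate against control and 1288 of 5604 for acriflavine against valproate. Valproate against control had 6303 without TGFb1 replicate 2 and the replicates 4. Fitting each probe set separately, which tests more features, gave 4284 to 12906 calls.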

Other observations

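Of 14 proteases that cut basement membrane proteins and their inhibitors, 11 were tested. With TGFb1 5 rose and 2 fell: the gelatinase MMP2, which cuts collagen IV, rose by 1.25 and its inhibitor TIMP2 by 1.27, and ADAMTS1 fell by 0.83. With acriflavine against TGFb1 4 rose and 3 fell, the matrilysin MMP7 rising by 2.31 and ADAMTS1 by 1.66 and TIMP2 falling by 0.99. With valproate against TGFb1 6 rose and 0 fell, MMP7 by 2.05, the plasminogen activator PLAT by 1.19 and ADAMTS1 by 0.67. The medians of the 11 were 0.45, 0.22 and 0.47. Among all tested genes 18.4%, 43.6% and 31.3% were called in these comparisons.

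Of 5 measured leukocyte markers, 3 were tested, and the defining markers PTPRC and CD3E lay below the brightness limit. With TGFb1 1 rose and 0 fell, with acriflavine against TGFb1 0 rose and 2 fell, and with valproate against TGFb1 1 rose and 0 fell. The medians of the 3 were 0.03, -0.76 and -0.02. Over all tested genes 18.4%, 43.6% and 31.3% were called. LAPTM5, named outside the rule for lists, rose by 0.87 with TGFb1 and fell by 1.05 with acriflavine against TGFb1.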
